A study of Mus musculus with 16 samples.

Results

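The input DNA of 4 mouse embryonic stem cell lines was compared across all consensus peaks, to describe copy number by line, chromosome and segment. The 8 input libraries were taken by their label of no antibody from 16 libraries in all, and the H3K27me3 libraries were not tested here. The 4 libraries of the Firre KO background (titled Rescue) were set against the 4 of the WT background (titled OE). The WT control line carried the label genotype WT. The WT transgene line was labelled as having intact Firre and an inducible Firre transgene. The KO transgene line was labelled Firre KO with the inducible transgene, and the remaining line, called the labelled KO control line here, was labelled Firre KO without it. Every line had 1 input library at 0 h and 1 at 48 h of doxycycline, so each background held 2 lines and 4 libraries. All lines shared the culture conditions: gelatin, fetal serum, LIF, and the kinase inhibitors PD0325901 and CHIR99021. The labels name no clone, culture or passage, no transgene promoter and no extent of the deletion. Each line may therefore be 1 clone, and p-values measure the spread between these libraries, which may be technical.

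Input DNA is sheared chromatin that was sequenced without an antibody, so the number of reads over a region follows the number of copies of that region in the cells, beside shearing and mapping. A region present in more copies in one line than in another gives more input reads over its whole length. Mouse embryonic stem cells in culture are known to gain whole chromosomes, 8 and 11 among them, and a bulk library cannot tell a gain in a share of the cells from one in all of them. Firre is a long noncoding RNA gene on the X chromosome. In ChIP-seq, an unequal copy number raises antibody and input reads together.

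The consensus set comprised 102957 peaks of 2356 bp in the median, of which 5808 lay on chromosome 11, 653 on X, none on Y and 137 on 29 unplaced or alternative scaffolds. Input counts in peaks summed to between 5870865 and 6244333 in 7 libraries, and to 3340654 in the 0 h library of the labelled KO control line. The median peak held 17 counts in that library and 30 to 32 in the others. Single peaks therefore had a large counting error, and copy number was read from 1 Mb bins, segments and whole chromosomes. Unless stated otherwise, a ratio is a line's input over that of WT control, each per count outside chromosome 11. Its 95% interval is binomial on summed counts, so it covers counting error only and no spread between libraries. PCR copies were not told apart, which can make the interval too narrow.

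The targeted gene was examined first. Firre holds 1 consensus peak (chrX:50569315-50570264, within the gene span chrX:50563120-50635321). It had 3 counts at 0 h and 6 at 48 h in WT control, 89 and 104 for WT transgene, 66 and 70 for KO transgene, and 37 and 73 in the labelled KO control line. The peak was thus high in 3 of the 4 lines, and the libraries of WT control did not overlap with the others. Per base, it stood at 0.453 and 0.946 times the mean of the X peaks in WT control. The same measure was 14.1 and 15.6 for WT transgene, 10.2 and 11.1 for KO transgene, and 10.8 and 11.2 in the labelled KO control line. The ratio over WT control was 21.5 (95% interval 11.1 to 47.7) for WT transgene, 15.5 (7.92 to 34.6) for KO transgene and 16 (8.12 to 35.9) in the labelled KO control line. The 59 other peaks within 5 Mb, summed, had ratios of 1.04, 1.0 and 1.03 in these lines, so the neighbourhood as a whole did not share the rise. The line labelled Firre KO without a transgene therefore carried this Firre sequence at a level near that of KO transgene, against its label. For this reason its label is repeated throughout, and every direction drawn for the KO libraries includes it. The extent of the deletion being unknown here, the peak counts copies of this sequence and does not check the deletion.

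The sequences of 3 regions whose input differed between lines are represented by a RefSeq promoter (GRCm38.p6) that lies inside the peak concerned. They are printed 5′ to 3′ on the gene's strand from 250 bases before to 50 after the gene start, with CG dinucleotides in capitals, because CG-rich promoters are the usual place of Polycomb marking in embryonic stem cells. CK137956 lies in the chromosome 4 interval low in the labelled KO control line (chr4:127970792-127971091, minus strand, 3 CG). Atoh1 lies in the chromosome 6 segment low in WT transgene (chr6:64728875-64729174, plus strand, 20 CG), and Fgfbp3 in a peak high in WT transgene (chr19:36919550-36919849, minus strand, 9 CG). The motif is the dinucleotide CG, which reads the same on both strands and was counted in every window of this length. Over 32851 promoters the median was 7 CG, and 26.5% held 20 or more. Atoh1 lies in this CG-rich share, but the limit of 20 equals its own count. Fgfbp3, with 9, lies above the median and CK137956, with 3, below it.
CK137956: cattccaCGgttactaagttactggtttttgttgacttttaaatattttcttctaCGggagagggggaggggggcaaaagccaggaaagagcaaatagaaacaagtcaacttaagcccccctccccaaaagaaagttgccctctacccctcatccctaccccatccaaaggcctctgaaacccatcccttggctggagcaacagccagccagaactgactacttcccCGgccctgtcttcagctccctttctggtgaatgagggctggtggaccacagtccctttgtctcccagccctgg
Atoh1: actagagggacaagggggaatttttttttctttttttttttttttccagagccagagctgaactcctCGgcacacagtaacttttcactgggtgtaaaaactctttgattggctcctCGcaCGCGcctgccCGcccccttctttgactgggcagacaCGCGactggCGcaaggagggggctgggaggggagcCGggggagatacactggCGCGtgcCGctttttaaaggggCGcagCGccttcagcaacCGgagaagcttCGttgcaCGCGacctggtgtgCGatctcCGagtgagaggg
Fgfbp3: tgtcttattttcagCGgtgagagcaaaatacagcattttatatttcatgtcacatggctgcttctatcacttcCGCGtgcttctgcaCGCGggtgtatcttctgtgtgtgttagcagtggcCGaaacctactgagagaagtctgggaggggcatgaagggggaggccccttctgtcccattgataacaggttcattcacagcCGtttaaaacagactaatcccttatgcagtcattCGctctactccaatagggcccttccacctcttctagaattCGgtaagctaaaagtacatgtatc

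Chromosome 11 was the 1 chromosome with a large difference between the backgrounds. It held 8.464% and 8.419% of the input counts of WT control at 0 and 48 h, and 8.255% and 8.254% of those of WT transgene. The share was 9.980% and 9.959% in KO transgene, and 11.117% and 11.115% in the labelled KO control line. All 4 KO libraries lay above all 4 WT libraries, and both times of a line lay close together. The ratio over WT control was 0.976 (0.973 to 0.979) for WT transgene, 1.2 (1.2 to 1.2) for KO transgene and 1.36 (1.35 to 1.36) in the labelled KO control line. With WT control set to 2 copies, which the counts cannot check, these ratios correspond to a mean of 1.95, 2.4 and 2.72 copies per cell. Neither KO line reached the ratio of 1.5 that a change from 2 to 3 copies in every cell would give.

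**Figure D1:**
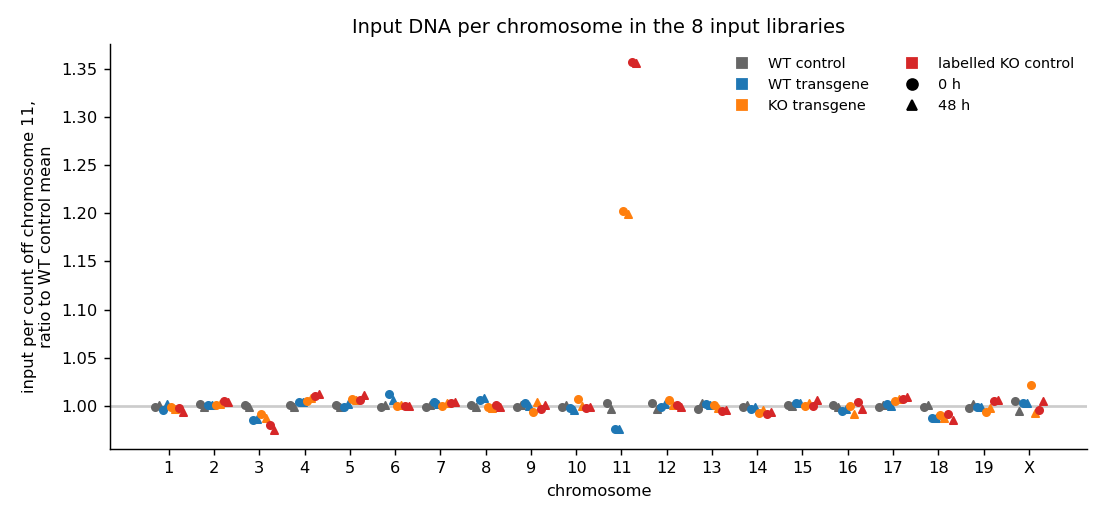
Input per chromosome in each of the 8 input libraries, per count outside chromosome 11 and as a ratio to the mean of the WT control libraries; colours mark lines and symbols mark times. Chromosome 11 stands at 1.2 in KO transgene and 1.36 in the labelled KO control line, while with both times of a line together the ratios on every other chromosome lie between 0.975 and 1.01.

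Between the backgrounds, chromosome 11 stood 1.29 times higher in the KO libraries (log2 difference 0.37, SD of log2 values 0.101 in KO and 0.0206 in WT, n = 4 libraries each). The exact two-sided permutation test of 4 against 4 libraries gave p = 0.0286, the smallest this design allows, with KO above WT in all 4 libraries. Adjusted over 20 chromosomes it was 0.0301 with all other counts of a library as denominator, under which 19 of 20 chromosomes passed and those other than 11 stood at 0.965 to 0.982. With the counts outside chromosome 11 as denominator for the others, the adjusted p was 0.114 and none of 20 passed, although 5 (chromosomes 4, 5, 11, 14 and 17) had an unadjusted exact p of 0.0286. When whole lines were exchanged, 2 against 2, the smallest possible exact p is 0.333, which is what chromosome 11 gave. With counts outside chromosome 11 as denominator, the other 19 chromosomes had KO over WT ratios of 0.99 to 1.01.

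The lines did not differ on other whole chromosomes to a like degree. The ratios over WT control ran from 0.975 to 1.01 in the labelled KO control line, from 0.989 to 1.01 in KO transgene and from 0.985 to 1.01 in WT transgene, with chromosome 3 at the lowest value, which chromosome 18 shares in KO transgene. Chromosome 8, another recurrent gain of cultured embryonic stem cells, stood at 0.999, 0.998 and 1.01 in these lines. X peaks held 0.536 to 0.551 times the counts per covered base of the autosomes other than 11 in the 8 libraries, whereas single ones of these ranged from 0.983 to 1.03 on the same scale. The peak set held no Y peak.

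Chromosome 11 kept its level over the 48 h of doxycycline. The ratio of 48 h to 0 h was 0.994 (0.99 to 0.998) in WT control, 1.0 (0.996 to 1.0) for WT transgene, 0.998 (0.994 to 1.0) for KO transgene and 1.0 (0.996 to 1.0) in the labelled KO control line. Across 2332 bins of 1 Mb, edgeR called 0 bins between the times after Benjamini-Hochberg adjustment (0% of bins in either direction), with 136 at an unadjusted p under 0.05. At the level of single peaks edgeR called 0 of 99005, with 4908 at an unadjusted p under 0.05.

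The whole length of chromosome 11 was raised. In the edgeR fit of KO against WT libraries, with time and labelled transgene state as covariates, 114 of the 2332 tested bins were higher (4.89%) and 3 were lower (0.129%). The 114 higher bins were the 114 tested bins of chromosome 11, with a median log2 difference of 0.36 and a range of 0.30 to 0.44. No bin of another chromosome was called higher. With total counts in place of TMM factors, which do not allow for the larger share of chromosome 11, the same fit called 178 bins lower. Bins in which all 4 KO libraries lay above all 4 WT libraries numbered 155 (6.65%), of which 114 were on chromosome 11 and 41 elsewhere. These bins hold 1601 of the 1609 protein-coding genes of the chromosome, out of 20557 in all tested bins.

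**Figure D2:**
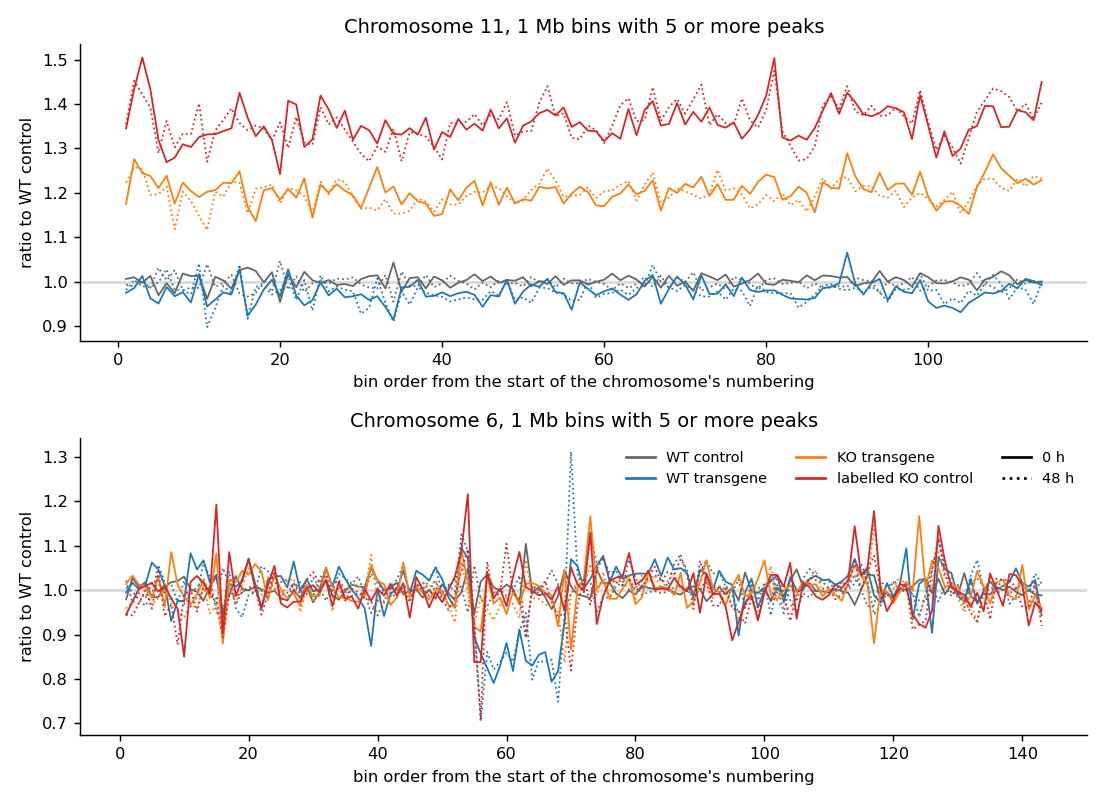
Ratio of each 1 Mb bin to WT control in the 8 input libraries along chromosome 11 (top) and chromosome 6 (bottom), against the order of the bins; solid lines are 0 h and dotted lines 48 h. On chromosome 11 the 2 KO lines form separate bands near 1.2 and 1.36 over all 114 bins, and on chromosome 6 WT transgene lies below 1 in 14 adjacent bins, with the labelled KO control line as low in the first 2 of them.

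The bins of chromosome 11 fell into separate bands by line. The lowest, median and highest bins were 0.954, 1.0 and 1.04 in WT control at 0 h, and 0.955, 0.996 and 1.05 at 48 h. WT transgene gave 0.915, 0.975 and 1.07 at 0 h and 0.898, 0.979 and 1.04 at 48 h. The bands of these WT lines overlapped. KO transgene gave 1.14, 1.21 and 1.29 at 0 h and 1.12, 1.2 and 1.26 at 48 h. The labelled KO control line gave 1.24, 1.35 and 1.5 at 0 h and 1.27, 1.36 and 1.47 at 48 h. The lowest bin of KO transgene lay above the highest of either WT line at both times, and the bands of the KO lines overlapped at their edges only. Outside chromosome 11 the median bin of the 8 libraries was 0.994 to 1.0.

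**Figure D3:**
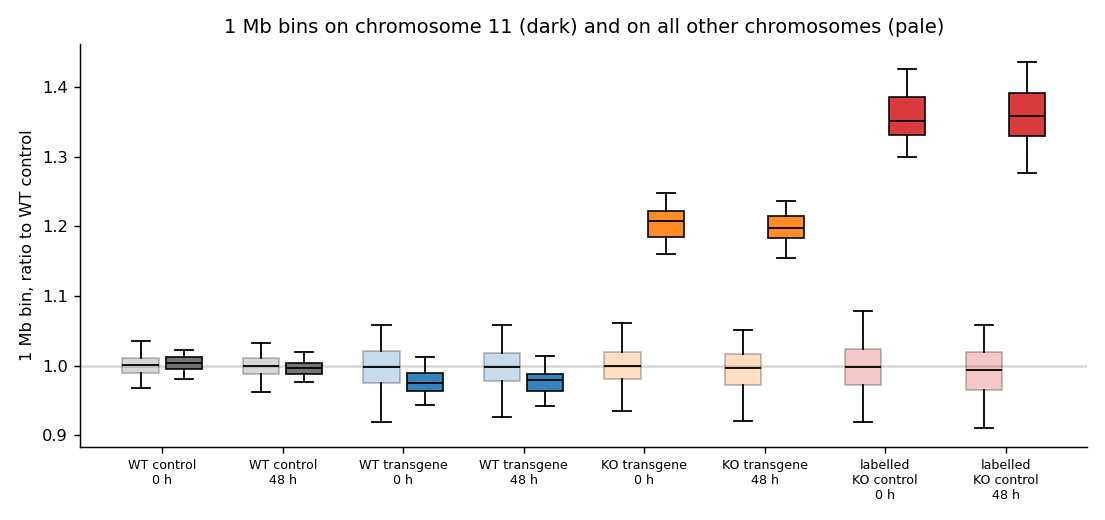
Ratios of 1 Mb bins to WT control in each input library, on chromosome 11 (dark boxes) and on all other chromosomes (pale boxes); boxes give the median and quartiles and whiskers the 5th to 95th percentile of bins. The medians on chromosome 11 are 1.21 and 1.2 in KO transgene and 1.35 and 1.36 in the labelled KO control line, while pale boxes have medians of 0.994 to 1.0.

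No tested bin of chromosome 11 stayed at the WT level, while 0 to 3, 10 to 11, 13 to 16 and 27 to 28 Mb held too few peaks to be tested as bins. The first tested bin (3 to 4 Mb) stood at 1.2 in KO transgene and 1.35 in the labelled KO control line, and the last (121 to 122 Mb) at 1.23 and 1.42. In 13 windows of 10 Mb, KO transgene ranged from 1.17 to 1.23 and the labelled KO control line from 1.32 to 1.42. The windows of WT control ran from 0.992 to 1.01 and those of WT transgene from 0.966 to 0.995. The smallest log2 difference of KO against WT was 0.30, found among others in the bin at 9 to 10 Mb with the DNA damage gene Hus1. The highest were 0.44, at 4 to 5 Mb with the cytokine genes Lif and Osm, and at 88 to 89 Mb with the splicing factor gene Srsf1 and the RNA-binding protein gene Msi2.

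A penalised segmentation of the bins, a description without a test, divided chromosome 11 into 2 segments in KO transgene (log2 0.264 and 0.304) and 4 in the labelled KO control line (0.441, 0.475, 0.394 and 0.487). All of them were gains, and with the penalty doubled each line had 1 segment over the chromosome, at 0.267 and 0.447. The bins were also grouped by gene density. In the labelled KO control line the median ratio was 1.32 in 24 bins with up to 3 protein-coding genes, 1.34 in 33 bins with 4 to 9, and 1.38 in 57 bins with 10 or more. Outside chromosome 11 the same classes gave 0.978, 0.995 and 1.01 in that line. KO transgene showed 1.19, 1.19 and 1.21 on chromosome 11 and 0.99, 0.998 and 1.0 elsewhere. WT transgene, without the gain, gave 0.972, 0.971 and 0.98 on chromosome 11 and 0.987, 1.0 and 1.0 elsewhere. Each of these lines thus had its highest ratio in the class with the most genes, on and off chromosome 11. In WT transgene outside chromosome 11, the middle class shared that value. The gene density of the segments was not compared, and its part in the steps was not tested.

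The gain was larger in the labelled KO control line than in KO transgene. Summed over chromosome 11, the former held 1.13 times the input of the latter. The edgeR contrast of the 2 KO lines, with line and time in the model, called 113 of 2332 bins higher in the labelled KO control line (4.85%) and 7 lower (0.3%). On chromosome 11, 108 of 114 bins were called, all of them higher, with a median log2 difference of 0.18 over the 114 bins and 0.12 to 0.30 in those called. All 114 had both libraries of the labelled KO control line above both of KO transgene, against 478 bins (20.5%) over the genome. The segmentation of this difference gave 1 segment over the whole chromosome (log2 0.179).

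Each KO line was also above the WT line of the same labelled transgene state. Against WT control, the labelled KO control line had 132 bins higher (5.66%) and 28 lower (1.2%), with all 114 bins of chromosome 11 among the higher ones (median log2 0.44, range 0.36 to 0.57). Against WT transgene, KO transgene had 124 higher (5.32%) and 8 lower (0.343%), again with all 114 bins of chromosome 11 (median 0.29, range 0.18 to 0.37). In WT transgene against WT control, 0 bins were called higher (0%) and 10 lower (0.429%), of which 1 was on chromosome 11 (log2 -0.08). The median bin of chromosome 11 there was -0.03.

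Polycomb genes, which encode the complexes that write and read H3K27me3, were touched where they lie on chromosome 11. Of 23 listed, 7 lie there, all 7 in bins called higher, beside 4.89% of all tested bins, and none of the 16 others was in a called bin. Since every tested bin of chromosome 11 was called, such a count says only where the genes of a list lie, and the lists were chosen with results of these data known. The list's median log2 difference was 0.03, and 0.00 for the members on other chromosomes (range -0.15 to 0.05), beside -0.00 over all bins and -0.01 over bins outside chromosome 11. Suz12, a core subunit of Polycomb repressive complex 2 (PRC2), lies in a bin with a log2 difference of 0.38 ± 0.03 (SE of the fit). Its bin stood at 1.01 and 0.988 in WT control, 0.973 and 0.967 for WT transgene, 1.19 and 1.2 for KO transgene, and 1.39 and 1.35 in the labelled KO control line at 0 and 48 h. The KO libraries did not overlap with the WT libraries there. Ezh1, an alternative catalytic subunit of PRC2, had 0.38 ± 0.03, and the bin shared by the PRC2-associated Epop and Pcgf2, a subunit of Polycomb repressive complex 1 (PRC1), had 0.41 ± 0.04. The chromobox genes Cbx2 and Cbx8, whose products bind H3K27me3 within PRC1, share 1 bin at 0.38 ± 0.03. The catalytic gene Ezh2, on chromosome 6, had -0.01 ± 0.02 (adjusted p = 0.92, edgeR).

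LIF signalling is the cytokine pathway that supports self-renewal in this medium. Of 11 listed genes, 7 lie in bins of chromosome 11 called higher, beside 4.89% of all tested bins, 0 were lower, and the median of the list was 0.37, with 0.02 for the other 4. The ligand genes Lif and Osm share the bin at 4 to 5 Mb (0.44 ± 0.03, adjusted p = 5.24e-09, edgeR). That bin stood at 1.01 and 0.99 in WT control, 0.986 and 1.0 for WT transgene, 1.28 and 1.26 for KO transgene, and 1.43 and 1.45 in the labelled KO control line. The 4 KO libraries were the highest of the 8. The transcription factor genes Stat3, Stat5a and Stat5b share a bin at 0.37 ± 0.03, the inhibitor Socs3 had 0.39 ± 0.03, and the adaptor Grb2 had 0.42 ± 0.03. The receptor genes Lifr and Il6st, on chromosomes 15 and 13, had -0.02 ± 0.02 and 0.02 ± 0.02, and the kinase gene Jak1 on chromosome 4 had 0.01 ± 0.02.

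Of 18 cell cycle and survival genes, 10 lie on chromosome 11 and all 10 were in called bins (4.89% of all tested bins), none of the other 8 was called, and the list's median was 0.34 (0.00 off the chromosome, range -0.05 to 0.06). Trp53, the p53 tumour suppressor gene, and the mitotic kinase gene Aurkb share a bin at 0.37 ± 0.03 (adjusted p = 4.81e-09, edgeR). It stood at 1.0 and 0.996 in WT control, 0.971 and 0.982 for WT transgene, 1.2 and 1.22 for KO transgene, and 1.32 and 1.4 in the labelled KO control line. These bins order the lines as the whole chromosome does. Birc5 (survivin) and the thymidine kinase gene Tk1 share the Socs3 bin (0.39 ± 0.03), Top2a (topoisomerase II) had 0.39 ± 0.03, and Brca1, a DNA repair gene, had 0.38 ± 0.03. Nf1, an inhibitor of Ras, had 0.39 ± 0.04, the receptor gene Erbb2 had 0.39 ± 0.03, the kinase gene Map2k4 had 0.35 ± 0.02, and the Wnt feedback gene Axin2 had 0.32 ± 0.02. Of the others, Mdm2, the inhibitor of p53, had 0.01 ± 0.02, Myc had -0.05 ± 0.03 and Mycn had 0.06 ± 0.02 (adjusted p = 0.092, edgeR).

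Other lists held few or no genes on chromosome 11. Of 19 pluripotency genes, 18 had a tested bin, none lies on chromosome 11, none was called, and their median was 0.01 (range -0.07 to 0.05). Of 16 Firre neighbours on X, 14 had a tested bin and 0 were called, with a median of -0.02. Among 8 loci that transgenes often share or use as docking sites, 6 had a tested bin and 1 was called: Col1a1 on chromosome 11, a collagen gene used as a docking site, at 0.39 ± 0.03. Of 17 genes known to vary in copy between mouse strains, 15 had a tested bin and 0 of these bins were called. At single peaks, that of the listed Fgfbp3 was called lower in KO (log2 -0.41 ± 0.09, adjusted p = 0.000903, edgeR). Its high libraries were those of WT transgene. Neighbouring genes share a bin, so members of 1 bin carry the same value.

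Single peaks of chromosome 11 showed the gain with less precision. Over all peaks, 1855 of 99005 tested were higher in KO (1.87%) and 70 were lower (0.0707%) by edgeR. DESeq2 called 850 higher and 0 lower, and without the 48 h library of the labelled KO control line edgeR called 1105 higher and 25 lower; without that of WT control at 48 h it called 43 lower. On chromosome 11, 1833 of 5758 tested peaks were higher (31.8%), 0 were lower, 5566 had a difference above 0, and the median log2 difference was 0.35. Among those called, 1517 had no overlap between KO and WT libraries. On other chromosomes, 15 of 19 peaks called higher and 48 of 67 called lower had none either. These counts are taken among peaks called from the same values and are no separate support. The peak across the transcription factor genes Stat5b and Stat5a (chr11:100842837-100877177) had a log2 difference of 0.37 ± 0.05 (adjusted p = 1.03e-09, edgeR). It held 81.8 and 88.3 CPM (counts scaled to 1000000 counts outside chromosome 11) in WT control, 78.9 and 75.4 for WT transgene, 98.9 and 93.4 for KO transgene, and 112 and 119 in the labelled KO control line. The 4 KO libraries were the highest of the 8 there. A peak within Stat5b (chr11:100819364-100833385) had 0.51 ± 0.07. The Col1a1 peak (chr11:94925412-94951619) had 0.32 ± 0.06.

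The largest differences among the better covered called peaks of chromosome 11 ran from 0.76 to 0.82 on the log2 scale. The region nearest Adcy1, an adenylate cyclase gene, had 0.82 ± 0.15, with 5.30 and 7.12 CPM in WT control, 4.83 and 7.85 for WT transgene, 9.36 and 11.8 for KO transgene, and 10.8 and 13.5 in the labelled KO control line. Its lowest KO library was above its highest WT library. The region nearest Slc35b1, a nucleotide sugar transporter gene, had 0.81 ± 0.14, and one within Pemt, which encodes an enzyme of phosphatidylcholine synthesis, had 0.79 ± 0.18. Peaks at Gm35148 and near Smim23 had 0.76 each. These 5 are the largest of 1465 called peaks of this chromosome with no overlap between groups and at least the median depth of 30.9 counts.

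A segment of chromosome 6 was low in WT transgene. Over 61 to 75 Mb (14 bins, 377 peaks, 69 protein-coding genes) the ratio was 0.834 at 0 h and 0.837 at 48 h in WT transgene, with 0.835 for both times together (0.822 to 0.849). It was 0.994 and 1.01 in WT control, 0.99 and 0.966 in KO transgene, and 0.994 and 0.996 in the labelled KO control line. The parts of chromosome 6 before and after the segment stood at 1.02 in WT transgene. All 14 bins were below 1 in both libraries of WT transgene, from 0.791 to 0.911 at 0 h and from 0.705 to 0.949 at 48 h. At 0 and 48 h, 10 and 13 of them were below 1 in KO transgene, whose ratio for both times was 0.978 (0.963 to 0.993), and 8 and 9 in the labelled KO control line, at 0.995 (0.979 to 1.01). In the bins at 61 to 62 and 62 to 63 Mb, which hold 7 and 10 peaks, the labelled KO control line was as low as WT transgene (0.89 and 0.754 against 0.918 and 0.779). With WT control at 2 copies, the ratio lies above the 0.5 that loss of 1 of 2 copies in every cell would give.

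The edgeR contrast of WT transgene with WT control called 8 of these 14 bins lower, with log2 differences from -0.35 to -0.23. The segment was drawn from the low ratios of WT transgene over WT control. Calls and counts of its bins and peaks that involve WT transgene therefore describe it and do not test it. The smallest adjusted p was in the bin at 73 to 74 Mb with Suclg1, a gene of the citric acid cycle (-0.28 ± 0.03, adjusted p = 1.83e-09, edgeR). The bin at 64 to 65 Mb with Atoh1, a proneural transcription factor gene, had -0.30 ± 0.04. That bin stood at 1.01 and 0.994 in WT control, 0.791 and 0.822 for WT transgene, 0.969 and 0.932 for KO transgene, and 0.982 and 0.983 in the labelled KO control line. WT transgene was below every other line there. Further called bins hold Smarcad1, a chromatin remodeller gene (-0.26 ± 0.04), Gadd45a, a DNA damage response gene (-0.27 ± 0.04), and Eif2ak3, an endoplasmic reticulum stress kinase gene (-0.29 ± 0.04). Bins in which both WT transgene libraries lay below the 6 others made up 137 of 2332 (5.87%), among them 11 of the 14 of this segment.

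At single peaks the same segment was harder to see. Of 351 tested peaks in it, 290 had a difference below 0 in WT transgene against WT control, with a median of -0.24, and 2 were called lower, while 7 peaks were called lower over all (0.00707%). The peak over Atoh1 (chr6:64716187-64748499), which holds the CG-rich promoter printed above, had 81.8 and 80.1 CPM in WT control, 63.1 and 62.8 for WT transgene, 75.6 and 67.4 for KO transgene, and 84.2 and 75.2 in the labelled KO control line. Its WT transgene libraries were the lowest of the 8 (log2 -0.35 ± 0.07). The other called peak lies over the Igk constant and joining segments (-0.61 ± 0.13). In bins of 100 kb the low segment ran over chr6:60900001-76000000. It was followed by a gain in WT transgene over chr6:76000001-77600000, at 1.14 and 1.17 (1.16 for both times, 1.11 to 1.21). The gain covers part of Ctnna2, a catenin gene, and Lrrtm1, a synaptic gene. With the libraries of 0 h or of 48 h alone, the segmentation in bins of 100 kb did not mark this gain.

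The segment also entered the comparison of backgrounds. The segmentation of KO over WT marked chromosome 6 from 63 to 75 Mb as higher (log2 0.11). The edgeR contrast of KO transgene with WT transgene called 8 bins of chromosome 6 higher (0.20 to 0.29, all within the segment) and 4 lower (-0.37 to -0.07, all beyond it), and the fit of all KO against all WT libraries called none of its 143 bins. The higher value of KO over WT in the segment therefore came with a low value in 1 WT line.

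An interval of chromosome 4 was low in the labelled KO control line alone. Over chr4:127800001-128200000 (35 peaks), which holds CK137956 and part of Csmd2, a gene of CUB and sushi repeat proteins, the ratio was 0.648 at 0 h and 0.708 at 48 h in that line (0.687 for both, 0.654 to 0.722). WT transgene stood at 0.998 and 0.983 and KO transgene at 0.985 and 0.958. The 1 Mb before stood at 1.01 and the 1 Mb after at 1.02 in the labelled KO control line. In it, 31 of the 35 peaks were below 1, with a median of 0.629, against 20 for WT transgene and 24 for KO transgene. Of 33 peaks tested, 11 were lower than in WT control, where 0.0485% of all tested peaks were, and 4 lower than in KO transgene, where 0.00606% were. In KO transgene against WT transgene 0 were lower (0.0162% of all tested peaks), and 0 in WT transgene against WT control. The interval was drawn from the low ratios of the labelled KO control line, so calls against that line describe it and do not test it.

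**Figure D4:**
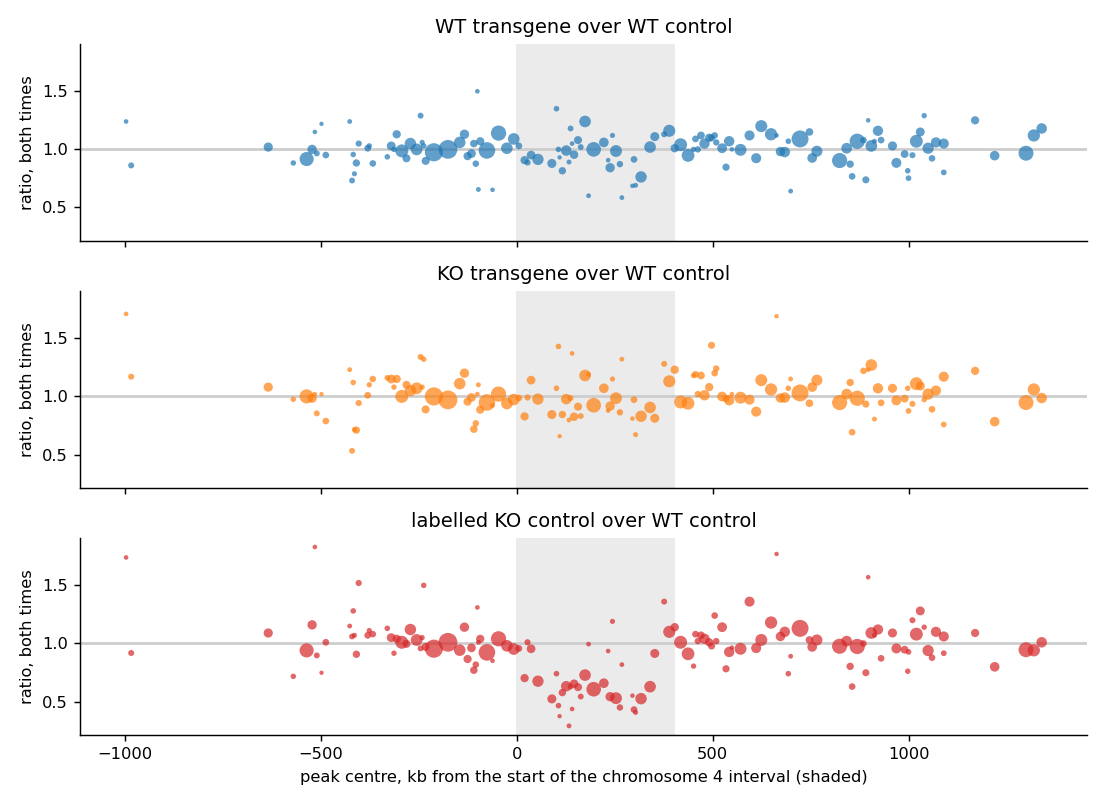
Ratio to WT control of each peak around the chromosome 4 interval (shaded, 0.4 Mb), both times summed, for 3 lines; the horizontal axis is the distance of the peak centre from the start of the interval in kb, and larger points have more WT control counts. In the labelled KO control line 31 of 35 peaks of the interval lie below 1, with flanking peaks around 1, and the other lines show no step.

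Peaks of this interval were among those called lower in KO against WT. The peak over CK137956 and Csmd2 (chr4:127984815-128006833) had 45.0 and 43.2 CPM in WT control, 42.7 and 45.7 for WT transgene, 44.6 and 37.0 for KO transgene, and 26.6 and 26.9 in the labelled KO control line. Its log2 difference of KO against WT was -0.38 ± 0.08 (adjusted p = 9.98e-05, edgeR), and the libraries that were low were those of the labelled KO control line. Within Csmd2, the peak at chr4:128046836-128060046 had 27.6 and 28.8 in WT control, 31.4 and 24.4 for WT transgene, 28.8 and 26.7 for KO transgene, and 14.1 and 15.3 in the labelled KO control line. A call between the backgrounds at these peaks thus goes with 1 of the 2 KO lines.

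Smaller loci also stood apart in 1 line. In the labelled KO control line, chr8:11100001-11200000 (10 peaks) stood at 1.39 and 1.32 (1.35 for both, 1.25 to 1.45), against 1.02 for WT transgene and 1.01 for KO transgene. The segmentation in bins of 100 kb marked this bin with both times summed, and not with either time alone. The main peak of this bin, over the noncoding Gm15418 near the collagen gene Col4a1, held 97.7 and 93.4 CPM in that line and 67.5 to 75.2 in the 6 other libraries. A peak of 309 bp at chr16:8226331-8226640 had 0 counts in both libraries of the labelled KO control line and 7 to 13 in each of the others. At this depth 0 counts allow up to 3 per library.

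Other sequences were higher in WT transgene. On the scaffold JH792827.1 its 3 peaks held 565 and 547 counts, against 188 and 183 in WT control, 160 and 171 in KO transgene, and 75 and 168 in the labelled KO control line. The ratio over WT control was 3.0 (2.67 to 3.39) for WT transgene, 0.914 for KO transgene and 0.857 in the labelled KO control line. The peak at the Fgfbp3 promoter printed above (chr19:36911006-36920551; Fgfbp3 encodes a fibroblast growth factor binding protein) held 38.2 and 33.2 CPM in WT transgene and 20.2 to 26.7 in the other libraries. The peak within Cd86, a costimulatory ligand gene, held 25.8 and 26.7 in WT transgene and 14.7 to 18.8 elsewhere. Both peaks were called higher in WT transgene than in WT control by edgeR, among 7 peaks called higher over all (0.00707%). On the scaffold JH584304.1 (8 peaks) WT transgene was low instead, at 0.89 (0.877 to 0.903), with 1.02 in both KO lines.

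**Figure D5:**
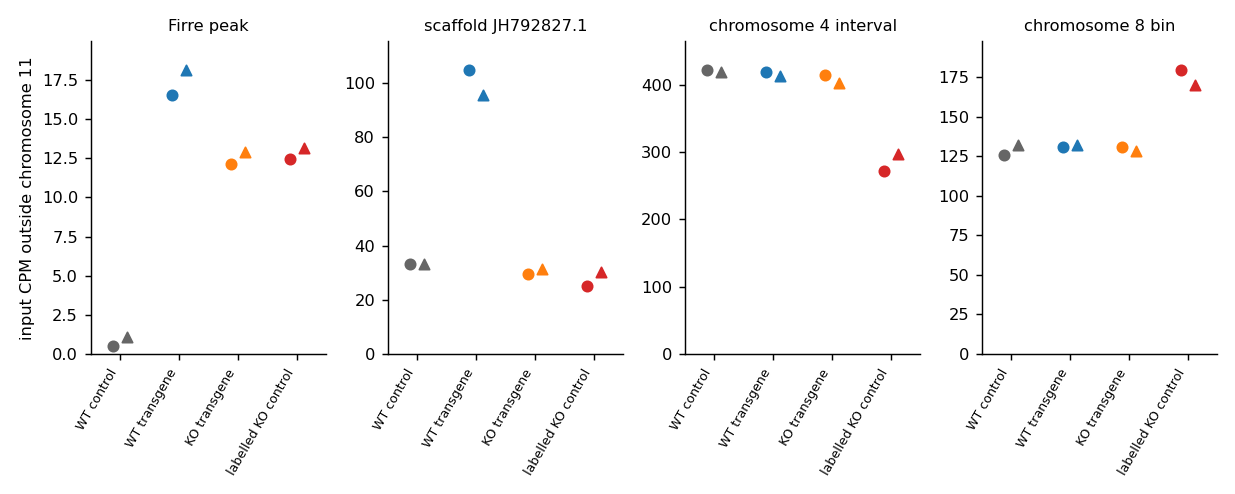
Input CPM, counts scaled to 1000000 counts outside chromosome 11 at the Firre peak, the scaffold JH792827.1, the chromosome 4 interval and a 100 kb bin of chromosome 8, with lines along the horizontal axis, circles for 0 h and triangles for 48 h. The Firre peak is low in WT control alone, the scaffold is high in WT transgene alone, and the chromosome 4 and 8 loci differ in the labelled KO control line alone.

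Outside chromosome 11, few peaks differed between the backgrounds. Of 93247 tested, 22 were higher in KO (0.0236%) and 70 lower (0.0751%). When chromosome 11 was left out of scaling and fit, 4 were higher and 4 lower. The 4 higher ones lie on JH584304.1, where WT transgene was low. Of the 4 lower ones, 3 lie on JH792827.1, where WT transgene was high, and 1 is the CK137956 and Csmd2 peak, where the labelled KO control line was low. Each of these 8 calls thus goes with the values of 1 line.

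Among peaks outside chromosome 11 that were called in the fit of all peaks, 7 rises and 34 falls had the median depth and no overlap between the groups. This rule picks peaks to name from the same values and is no further test. The rises were small in count. A peak within the tenascin gene Tnn rose by 0.76 ± 0.18, with 3.14 to 6.02 CPM in WT libraries and 6.79 to 9.09 in KO libraries. One within Maff, a small Maf transcription factor gene, rose by 0.55, with 7.43 to 8.20 against 11.1 to 12.4, and one within Cacna1d, a calcium channel gene, rose by 0.24. Others lay near Ranbp2 (0.57), over Pom121 and Hip1 (0.45), in Invs (0.43) and near Utp15 (0.35). Of the falls, the largest were 2 peaks of JH792827.1 (-1.26 and -1.20). The region nearest Tmem139 followed, at -0.72 ± 0.18, with 7.12 to 8.54 in WT libraries and 3.70 to 5.95 in KO libraries. Falls within Dscam, a neuronal adhesion gene (-0.62), Rdh10, a retinol dehydrogenase gene (-0.62), Trhde, a peptidase gene (-0.59), and Caln1, a calcium-binding protein gene (-0.55), were of like size. Of the peaks named in this group, those on JH792827.1 kept their call once chromosome 11 was left out, and none of those at or near genes did.

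At the scale of 1 Mb, 3 bins were lower in KO than in WT. The count was 1 without the 48 h library of WT control, 1 without that of the labelled KO control line, 1 with DESeq2 and 178 with total counts, and it was 5 and 6 without the 48 h libraries of WT transgene and KO transgene. The bin of chromosome 14 at 41 to 42 Mb (24 peaks), with the methionine enzyme gene Mat1a, the surfactant protein genes Sftpa1 and Sftpd and the lectin gene Mbl1, fell by 0.15 ± 0.03 on the log2 scale (adjusted p = 0.00129, edgeR). It stood at 1.0 and 0.995 in WT control, 1.03 and 1.01 for WT transgene, 0.907 and 0.935 for KO transgene, and 0.891 and 0.913 in the labelled KO control line. Both KO lines were below both WT lines there, unlike at the loci of chromosomes 4 and 6. The bin was called in each pair of lines with the same labelled transgene state (-0.16 and -0.14). These contrasts use the libraries of the fit that picked the bin and are no separate support. The bin of chromosome 1 at 159 to 160 Mb, with the ubiquitin ligase gene Cop1 and the tenascin gene Tnr, had -0.09 ± 0.02, and the bin of chromosome 13 at 109 to 110 Mb, within the phosphodiesterase gene Pde4d, had -0.08 ± 0.02. Bins with all 4 KO libraries below all 4 WT libraries numbered 47 (2.02%).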

How the data were processed

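Input DNA was sequenced from 4 lines at 2 times. The deposited table lists raw read counts, whole numbers that the authors did not normalise, by library and consensus peak. The deposited peak list gives each peak a score, a fold enrichment and −log10 q-values by the authors' peak caller, which describe the peak and were not tested. Tools named in the submitters' processing notes, with no role or order, are featureCounts, MACS2 2.2.71, BWA 0.7.17-r1188 and DESeq2 1.26.0, with the build mm10. The sources used here do not give the libraries that peaks were called on. Regions outside H3K27me3 peaks are not seen, so a copy change shows where peaks lie.

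Counts were tested with edgeR 4.0.16 (R 4.3.3; quasi-likelihood F test, TMM factors, filterByExpr, Benjamini-Hochberg at 0.05) per peak and per 1 Mb bin with 5 or more peaks. KO was compared with WT beside time and labelled transgene state, lines were compared beside time, and times beside line. Values are log2 differences ± SE. DESeq2 1.42.0 and limma-voom (limma 3.58.1) served as alternatives. Whole chromosomes were compared by exact permutation. Ratios of counts have 95% exact binomial intervals. Segments came from penalised least squares of bins and are descriptions. On simulated counts with the same design, 64 of 100 peaks changed by 0.5 on the log2 scale and 50 of 50 bins changed by 0.25 were recovered, with 3 false calls among peaks and 7 among bins. The simulated dispersion was below the fitted 0.000393 for peaks and 0.000221 for bins, and lines did not differ otherwise. Changes were planted only above a minimum count, so recovery in the real counts may be lower. Genes were taken from RefSeq spans of GRCm38.p6, the build of mm10, without exons, so exonic or intronic position is not reported. Peak starts are printed as deposited. The members, gene lists and tests were chosen with earlier results of these data known. Named peaks were called peaks of at least median depth with no overlap between groups, the 12 largest rises and falls outside chromosome 11 and the 5 largest on it, beside list members in called bins or peaks and genes of small segments. Loci read from segments and from contrasts of lines at single peaks were added after the data were seen. Some results are not reported here.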

Additional observations from a re-analysis of the deposited data

Results flagged for a closer look

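The lines of the KO background differed from each other on chromosome 11, with 108 of its 114 bins of 1 Mb higher in the labelled KO control line than in KO transgene by edgeR at an adjusted threshold of 0.05. This drew attention because libraries of 1 background are otherwise treated as alike. The ratio between them was 1.13 over the chromosome (1.36 against 1.2 over WT control, at 0 h and at 48 h).

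Peaks on the scaffold JH792827.1, which no comparison of chromosomes uses, stood 3.0 times higher in WT transgene than in WT control, and above every library of the other 3 lines. The place of this sequence in the genome of these cells was not analysed here.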

How the results depend on the processing

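The chromosome 11 ratio of KO over WT kept its direction and size under all 14 alternatives run, from 1.27 to 1.32 when 1 library was left out. No reported value changed sign, but the balance of higher and lower bins turned with total counts. Counts of peaks depended on the tool and on chromosome 11: DESeq2 called 850 higher and 0 lower against 1855 and 70. A minimum mean count of 50 gave 119 lower, both times of a line summed gave 35 lower, and leaving out chromosome 11 gave 4 and 4. Leaving out 1 library gave 1105 to 1681 higher and 25 to 60 lower, with 1105 and 25 without the 48 h library of the labelled KO control line and 43 lower without that of WT control at 48 h.

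Bins of 1 Mb kept 114 to 121 higher and 1 to 6 lower in KO without 1 library: 1 lower without WT control or the labelled KO control line at 48 h, 5 without WT transgene and 6 without KO transgene at 48 h. The contrasts of lines gave 122 to 171 (the labelled KO control line against WT control), 120 to 136 (KO transgene against WT transgene), 107 to 124 (between the KO lines), 7 to 13 (between the WT lines) and 0 to 0 between times. Bins of 500 kb gave 229 higher and 8 lower for KO, and 268, 244 and 205 for the first 3 contrasts, and bins of 5 Mb gave 26, 1, 79, 31 and 32, with 20 between the WT lines; fewer or more bins were then tested. Total counts in place of TMM raised the lower bins from 3 to 178 and the first contrast from 160 to 459, so the split of higher and lower calls depends on scaling. DESeq2 called 1 bin lower. Segments outside chromosome 11, counted in each comparison of lines or backgrounds, numbered 2 at 1 Mb, 5 at 500 kb and 11 at 100 kb. A region can count in several comparisons, and the 2 at 1 Mb overlap on chromosome 6.

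Every condition has replicate 1 only, so no replicate number can be a block. Time is a term of all main fits. Line is a term in the fit that gave the contrasts of lines and of times, so 48 h was compared with 0 h within lines. The fit of KO against WT has background and labelled transgene state in place of line. In that fit both times of a line count as separate libraries, so its p-values do not measure the spread between lines. Depth limits single peaks, most of all in the 0 h library of the labelled KO control line with 3340654 counts.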
